A study of Mus musculus with 4 samples.

Results

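The cells described here were 199 single cells, chosen from 9256 filtered lung cells by a rule for regulatory T cell transcripts. Foxp3 was detected in 92 of them, so not every cell need be a regulatory T cell. Leukocytes were prepared with CD45 beads from the perfused, collagenase-digested lungs of Balb/c mice, 14 days after 4T1 cells were given intravenously. 4T1 is a breast carcinoma line of Balb/c origin. In the PD-L1 KO group (2 libraries) the injected 4T1 cells lacked PD-L1, and in the WT group (2 libraries) they were unmodified 4T1 cells. The labels give no genetic change in the mice themselves, no age and no sex, do not say whether the knockout line was 1 clone, and do not say whether each library came from a separate mouse, so p-values measure only the spread between these libraries. The names of the deposited files carry the opposite condition from the sample labels. The groups below follow the labels, so the direction of every PD-L1 KO against WT difference rests on them.

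A barcode was kept with at least 200 genes detected and at most 10% of its unique molecular identifiers (UMIs, each 1 counted transcript molecule) from mitochondrial genes. It then had to hold at least 1 UMI of the T cell receptor subunits Cd3e, Cd3d and Cd3g together, no Cd8a, Cd8b1 or Cd79a, at most 5 UMIs of the myeloid gene Lyz2 and at most 2 of the C1q chains. Last, it had to hold Foxp3, or at least 3 UMIs of Il2ra, Ctla4 and Ikzf2 together. This gave 54 and 43 cells in the PD-L1 KO libraries and 55 and 47 in the WT libraries, here called Treg-gated cells. They were compared with 242 conventional CD4 T cells, which met all but the last clause and held at least 1 UMI of Cd4, and in places with 481 CD8 T cells. Cd4 was not required of the Treg-gated cells, and 81 of the 199 (40.7%) held it. Median UMIs per cell ran from 4080 to 4722 in the Treg-gated cells and from 3825 to 4522 in the conventional CD4 T cells of the 4 libraries. The 4 libraries held 17618220 to 19635983 UMIs, no Treg-gated barcode occurred in more than 1 library, and 2 of the 199 were marked as likely doublets.

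Regulatory T cells are CD4 T cells that restrain other immune cells. Foxp3 is the transcription factor that holds their identity, Il2ra (CD25) gives them high affinity for interleukin-2, Ctla4 competes for co-stimulatory ligands on antigen-presenting cells, and Ikzf2 (Helios) is a transcription factor abundant in thymus-derived regulatory T cells. In lung and other tissues an activated subset is known for interleukin-33 receptor, Klrg1 and the repair factor amphiregulin, while a resting subset keeps lymph node homing genes. PD-L1 on tumour cells binds PD-1, the product of Pdcd1, which T cells carry.

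In GRCm38 (mm10) coordinates, Foxp3 (ENSMUSG00000039521) lies on chromosome X at 7573644 to 7595245 on the plus strand. Il2ra lies on chromosome 2 at 11642807 to 11693193. Ctla4 and Ikzf2 are both on chromosome 1, at 60887000 to 60915832 and at 69531214 to 69687245. Tnfrsf4 (OX40) and Tnfrsf18 (GITR), a pair of co-stimulatory receptors of the TNF receptor family, are neighbours on chromosome 4, at 156013843 to 156016612 and 156026164 to 156028895.

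The genes that chose the cells are described first, with no test. Foxp3 was at 169 and 202 CPM (the UMIs of a gene summed over the Treg-gated cells of a library, scaled to a total of 1000000) in the PD-L1 KO libraries and 177 and 177 CPM in the WT libraries. Ctla4 was at 681 and 460 CPM in PD-L1 KO and 450 and 384 CPM in WT. Ikzf2 was at 693 and 919 CPM in PD-L1 KO and 531 and 768 CPM in WT. For Foxp3, Ikzf2 and Il2ra the groups overlapped, with Il2ra at 313 and 226 CPM in PD-L1 KO and 212 and 257 CPM in WT. Ctla4 was higher in both PD-L1 KO libraries than in either WT library, at the nearest by 460 against 450 CPM. The cells were chosen partly by Ctla4, so no difference between the groups is drawn from it. Of the 4100 genes tested between the groups below, 16.8% were higher in PD-L1 KO without overlap.

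Foxp3 was detected in 92 of the 199 cells (46.2%, 95% Clopper-Pearson interval 39.2 to 53.4%, which covers counting error only), in 22 and 23 cells of the PD-L1 KO libraries and 26 and 21 of the WT libraries. In droplet data free RNA can give stray UMIs, and Foxp3 was found in 0.391% of 1024 B cells, 0.336% of 595 macrophages and 0.0678% of 1475 neutrophils. NK cells had it in 0 of 461 cells, which allows a share of up to 0.651%, and CD8 T cells in 2.49% of 481. Of the 92 cells with Foxp3, 35 held 1 UMI of it, 28 held 2 and 29 held 3 or more. The other markers followed: 87 of the 92 (94.6%) held Il2ra, Ctla4 or Ikzf2, and 79 (85.9%) held at least 3 UMIs of those genes, so that the second clause alone would have taken them. Tnfrsf4, a regulatory T cell marker that the rule did not use, was detected in 69.6% of them, against 12.8% of conventional CD4 T cells, 7.90% of CD8 T cells and 0.475 to 0.868% of neutrophils, B cells, macrophages and NK cells.

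The 107 cells without a Foxp3 UMI held other markers in other shares. Ikzf2 was detected in 77.6% of them, Il2ra in 58.9%, Ctla4 in 57.0% and Tnfrsf4 in 39.3%. In the cells with Foxp3 these shares were 84.8%, 47.8%, 83.7% and 69.6%. The cells without Foxp3 could enter only through Ikzf2, Il2ra and Ctla4. Their shares of those genes were thus shaped by the rule, and only Tnfrsf4 was free of it. A gamma-delta T cell receptor transcript (Trdc, Tcrg-C1 or Trdv4) was present in 32 of the 107 (29.9%, interval 21.4 to 39.5%) and in 4 of the 92 cells with Foxp3 (4.35%, interval 1.20 to 10.8%). Tcrg-C1, the constant region of the gamma chain, was in 15.9% of the cells without Foxp3 and in 0 of the 92 with it, which allows a share of up to 3.26%. It was in 0 of the 242 conventional cells, which allows up to 1.24%, but only these had to hold Cd4, so the gates were unlike. Trac, the constant region of the alpha chain, was detected in 65 of the 107 and in 76 of the 92. Cd4 was detected in 37 of the 107 (34.6%) and in 44 of the 92 (47.8%). The chemokine receptor Cxcr6 stood at 40.2% of the cells without Foxp3, 6.52% of those with it and 9.50% of conventional cells. Il17a and Csf2 were detected in 4.67% and 6.54% of the cells without Foxp3 and in none of the cells with it. Of the 5 markers of the label, Foxp3, Il2ra, Ctla4 and Ikzf2 belong to the rule, so Tnfrsf4 is the one that checks it, and it was detected more often in both Treg-gated sets than in the conventional cells. The Foxp3-undetected cells included cells with gamma-delta transcripts, and the name Treg-gated is kept for the whole.

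**Figure D1:**
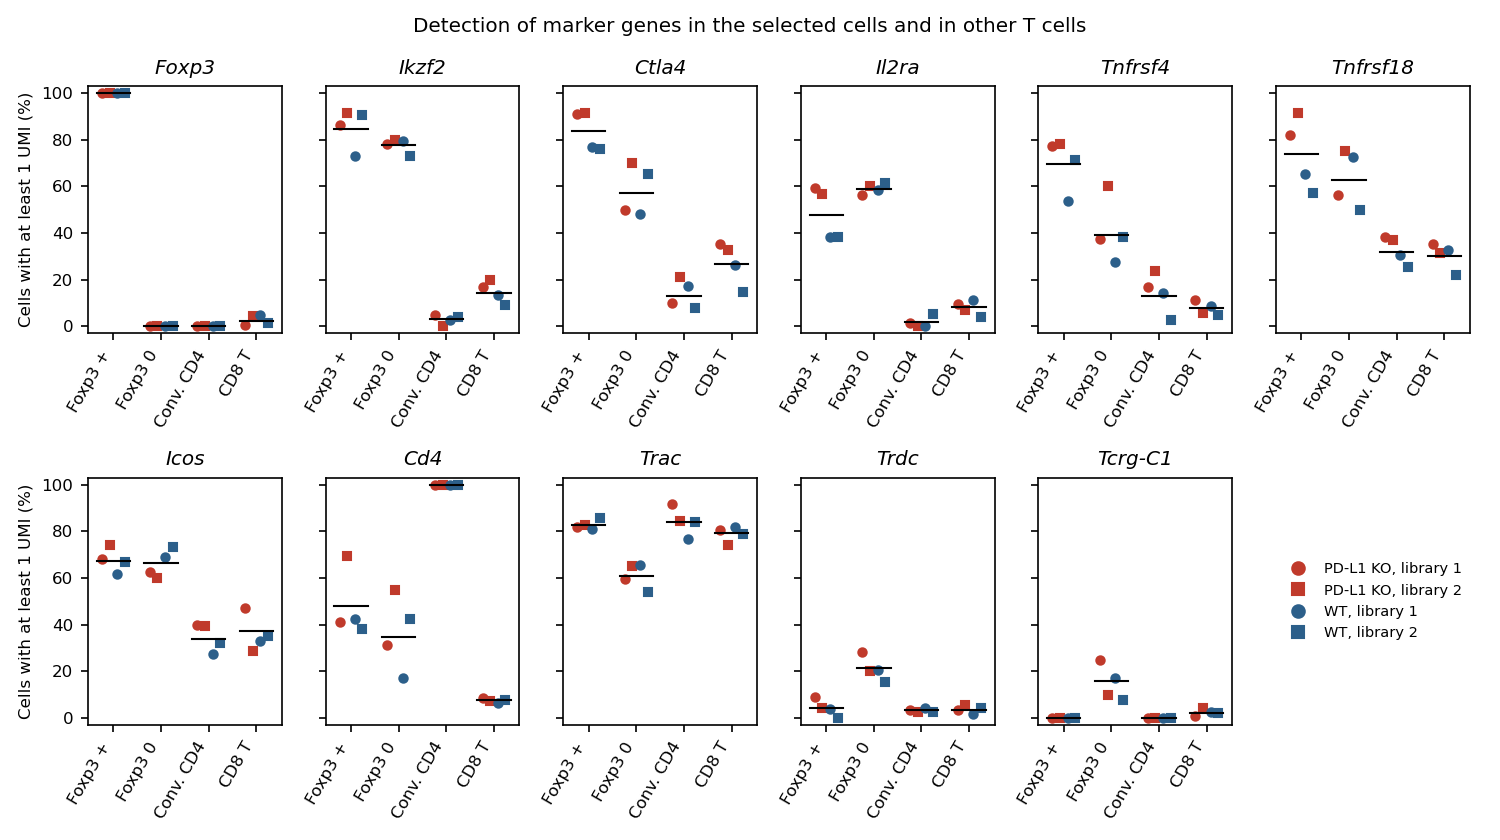
Percent of cells with at least 1 UMI of each of 11 genes in the Treg-gated cells with Foxp3 (Foxp3 +), those without (Foxp3 0), conventional CD4 T cells and CD8 T cells. Points are libraries, red for PD-L1 KO and blue for WT, and the black line is the value over the pooled cells. Tnfrsf4 stands at 69.6% and 39.3% in the Treg-gated sets against 12.8% in conventional cells, and Tcrg-C1 is seen at 15.9% in the Foxp3 0 set and at 0 in the Foxp3 + set.

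At the edge of the rule, 28 cells without Foxp3 held exactly 3 UMIs of Il2ra, Ctla4 and Ikzf2 and entered, and 40 held 2 and stayed out. Tnfrsf4 was in 4 of the 28 and in 6 of the 40, Tnfrsf18 in 18 and in 20, Trac in 16 and in 20, and Trdc in 8 and in 7. Among the 15 cells with 6 such UMIs, 9 held Tnfrsf4.

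The Foxp3-detected cells also differed among themselves. Itgae (CD103) or Klrg1, surface proteins of activated tissue regulatory T cells, was detected in 35 of the 92 (38.0%). Mki67 or Top2a, which cycling cells express, was in 25 (27.2%), against 19 of the 107 cells without Foxp3 (17.8%). Areg, which encodes amphiregulin, was found in 23.9% of the cells with Foxp3, 8.41% of those without and in none of the 242 conventional cells. Il1r2, a decoy receptor for interleukin-1, was in 17.4%, 1.87% and 5.79% of these sets in the same order, and Bcl2, a survival factor, in 38.0%, 69.2% and 80.6%.

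Transcripts of other cell types were measured in the same cells. The summed level of the 5 gamma-delta genes was 460 and 230 CPM in PD-L1 KO and 234 and 211 CPM in WT Treg-gated cells. It was 45.8 and 58.4 CPM in PD-L1 KO and 6.64 and 0 CPM in WT for the Foxp3-detected cells, where Tcrg-C1, Trdv4, Il17a and Blk were at 0. Of the 7 ILC2 genes, markers of group 2 innate lymphoid cells, all were detected in the Treg-gated cells, at 553 and 323 CPM in PD-L1 KO and 574 and 515 CPM in WT. The Foxp3-detected cells had 649 and 328 CPM of them in PD-L1 KO and 365 and 670 CPM in WT, from Il1rl1, Gata3 and Areg, which regulatory T cells also express, with Il13, Il5, Hs3st1 and Calca at 0. The 4 neutrophil genes summed to 3825 and 2988 CPM in PD-L1 KO and 6440 and 5865 CPM in WT, and most of that was in few cells: 4 and 4 PD-L1 KO cells and 8 and 4 WT cells held 20 or more UMIs of S100a8 and S100a9. The neutrophil transcripts lay mainly in the Foxp3-detected cells, at 8538 and 5373 CPM in PD-L1 KO and 11180 and 7755 CPM in WT, while the Foxp3-undetected cells had 434 and 45.0 CPM in PD-L1 KO and 1024 and 3693 CPM in WT. Their part in the differences below was tested only by leaving out the mixed-lineage cells. The 6 NK genes summed to 687 and 411 CPM in PD-L1 KO and 1020 and 16.9 CPM in WT, with Klra8 at 0. B cell genes lay between 6.39 and 25.3 CPM, and the 2 macrophage genes outside the rule between 3.20 and 12.1 CPM with Adgre1 at 0. Dendritic cell genes summed to 281 and 484 CPM in PD-L1 KO and 184 and 321 CPM in WT, with Xcr1 and Cd209a at 0. The 3 endothelial genes summed to 118 and 36.3 CPM in PD-L1 KO and 60.2 and 106 CPM in WT.

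Set against conventional CD4 T cells of the same libraries, the Treg-gated cells carried more transcript of the receptors Tnfrsf4, Tnfrsf18 and Icos, of 7 of 8 tested effector and tissue regulatory T cell genes and of 7 of 15 tested cell cycle genes. They carried less of 10 of 12 resting and homing genes. UMIs were summed per library and cell set and tested with edgeR's quasi-likelihood test with the library as a block. The genes of the rule, Cd4 and mitochondrial genes were left out. Of 4029 genes tested, 175 (4.34%) were higher and 206 (5.11%) lower at a Benjamini-Hochberg adjusted p under 0.05. The split depended on the scaling: with library totals in place of trimmed-mean (TMM) factors, 319 were higher and 148 lower, and the median of all genes moved by 0.16 on the log2 scale.

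Of 17 listed regulatory T cell markers outside the rule 11 were tested, and all 11 were higher (median log2 difference 2.01, against 0.00 over all genes). The filter on low counts kept a gene with enough UMIs in either cell set alone. A marker low in conventional cells could thus enter through the Treg-gated cells only, so the count of 11 does not check the gate. Tnfrsf4 stood at 514 and 714 CPM in PD-L1 KO and 149 and 287 CPM in WT Treg-gated cells, a mean of 416 ± 249 CPM (SD, n = 4 libraries) against 53.4 ± 40.6 CPM in conventional cells. Its log2 difference was 2.85 (SE 0.32, edgeR adjusted p = 5.28e-05), and in Foxp3-detected cells alone it was 3.41. Tnfrsf18 averaged 440 ± 186 CPM in Treg-gated and 124 ± 36.5 CPM in conventional cells (SD, n = 4), a log2 difference of 1.64 (SE 0.16, edgeR adjusted p = 1.25e-05). Icos, a co-stimulatory receptor of the CD28 family, averaged 470 ± 85.8 CPM against 165 ± 69.2 CPM, 1.42 on the log2 scale (edgeR adjusted p = 7.78e-05). These were the 3 genes called among 8 tested TNF receptor and co-stimulatory receptors. S100a4, a calcium-binding protein of motile cells, differed by 2.20 on the log2 scale, and Il2rb, the interleukin-2 receptor beta chain, by 1.14. The integrin chain Itgae averaged 51.5 ± 7.48 CPM against 9.42 ± 15.7 CPM (log2 difference 2.26, edgeR adjusted p = 0.0393).

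Of 16 listed effector and tissue regulatory T cell genes 8 were tested, with 7 higher and none lower (median log2 difference 1.48). The same limit of the filter holds for this count. Klrg1, an inhibitory lectin-like receptor, averaged 66.9 ± 28.8 CPM in Treg-gated and 4.50 ± 3.66 CPM in conventional cells (log2 difference 3.40, edgeR adjusted p = 0.000443). Il1rl1, the interleukin-33 receptor chain, averaged 116 ± 37.2 CPM against 16.8 ± 19.2 CPM (log2 difference 2.87, edgeR adjusted p = 0.000768). It is also an ILC2 gene, and in Foxp3-detected cells alone its log2 difference was 2.76. The transcription factors Maf, Rora and Gata3 differed by 2.04, 1.56 and 1.18. Ikzf3 (Aiolos), listed with helper lineage regulators, averaged 167 ± 19.3 CPM against 48.6 ± 9.90 CPM, 1.60 on the log2 scale. Areg had 144 UMIs in Treg-gated cells and 0 in conventional cells, so it was at least 52.5-fold higher, with the floor set at 3 UMIs over the conventional cells of all libraries. Areg is also an ILC2 gene, and only the conventional cells had to hold Cd4. The bound therefore compares unlike gates, and a bound without the Cd4 requirement was not computed. Areg was chosen for mention after its values were seen, as were Il10 and Lrrc32 (GARP, which presents latent TGF-beta). Those were likewise at 0 in conventional cells and at least 8.39-fold and 6.20-fold higher. For Il10 this held in the PD-L1 KO libraries only, with 4 and 19 UMIs, of which 1 cell held 13. In the WT libraries Il10 was at 0 in Treg-gated and conventional cells alike.

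Of 15 suppressive effector genes 6 had enough counts to be tested, and 2 were higher, Lgals1 (galectin-1) and Nt5e (CD73). Lgals1 differed by 1.65 on the log2 scale (edgeR adjusted p = 0.000159), and Tgfb1, which encodes TGF-beta 1, by 0.54 (edgeR adjusted p = 0.12). Among 3 tested inhibitory receptors Pdcd1 passed, at 70.0 ± 28.0 CPM against 15.2 ± 14.5 CPM (log2 difference 2.18, edgeR adjusted p = 0.00368). Chemokine receptors that passed were Ccr2, Cxcr3 and Cxcr6, which were higher, and Cxcr4, which was lower, of 10 tested. Ccr2, the receptor for monocyte chemoattractants, averaged 307 ± 81.6 CPM against 70.0 ± 17.7 CPM (edgeR adjusted p = 4.34e-06). Cxcr6 is named after its values were seen. It differed by 1.48 over all Treg-gated cells, and its detection lay mainly in the cells without Foxp3. Ltb, encoding lymphotoxin beta, was the only one of 4 tested cytokines to pass, at 0.48 higher.

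Cell cycle genes passed in 7 of 15 cases, all higher (median log2 difference 0.98), among them Stmn1 at 1.43, Tyms at 2.76 and Hmgb2 at 0.63. T cell receptor response genes were higher in 3 of 10 cases, with Rgs1 at 0.82 and Nfkbia at 0.64. Of 12 tested T cell receptor signalling genes 1 was higher and 3 lower. Among 10 Foxp3 partner and chromatin genes Ezh2 and Gata3 were higher and Satb1 lower. The interferon response list held 5 higher and 2 lower genes of 41, with Ifi27l2a at 0.97, and MHC class I presentation genes 2 higher of 19. Trdc was higher by 3.67, but the gates were unlike, as only the conventional cells had to hold Cd4. Over 12 alternatives its difference ranged from 1.27 to 3.98. Of 659 cells that met the other clauses without a Foxp3, Il2ra, Ctla4 or Ikzf2 UMI, Cd4 not required, 46 held Trdc. The part of Trdc in the other differences was tested only by leaving out the cells with gamma-delta or ILC2 transcripts. Then 154 genes were higher and 186 lower, and 290 of the 340 were among the 381 called in all Treg-gated cells. The 381 included the MHC class II genes H2-Aa, H2-Ab1 and H2-Eb1. With mixed-lineage cells left out of both cell sets, 441 genes were called, and 331 of them were among the 381.

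Resting and lymphoid homing genes were lower in 10 of 12 cases and higher in none (median log2 difference -0.99). Dapl1 stood at 22.6 ± 5.37 CPM in Treg-gated and 230 ± 51.6 CPM in conventional cells (log2 difference -3.48, edgeR adjusted p = 6.41e-07). Lef1, a transcription factor of naive T cells, averaged 140 ± 56.8 CPM against 455 ± 166 CPM (log2 difference -1.87, edgeR adjusted p = 6.53e-06). Satb1, a chromatin organiser of thymocytes, differed by -1.71, the homing receptor Ccr7 by -1.20, Klf2 by -0.88, Foxp1 by -0.77 and the interleukin-7 receptor Il7r by -0.64. Outside the lists, Igfbp4 was lower by 2.83 on the log2 scale, and its difference was -2.84 in Foxp3-detected cells. Bcl2 averaged 384 ± 116 CPM against 805 ± 138 CPM, a log2 difference of -1.24 (edgeR adjusted p = 1.55e-05). The other large differences among genes of the same sign in all 4 libraries were Swap70 at 2.68, Cmtm7 at 2.34, Wls at 2.34, Fam129a at 2.25 and Dst at 2.25 on the higher side. On the lower side were Tdrp at -2.94, Pdlim4 at -2.18, App at -1.92, Rflnb at -1.80, Scml4 at -1.73, Gramd3 at -1.53, Pik3ip1 at -1.49 and Fam78a at -1.48.

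Leaving out 1 library took the call from 13 of the genes named in this comparison, with edgeR adjusted p from 0.0519 to 0.269 and no change of direction. Without WT library 1 these were Ezh2 (0.95 on the log2 scale), Fam78a (-1.38), Foxp1 (-0.66), Hmgb2 (0.61), Itgae (1.90), Ltb (0.58), Nfkbia (0.64), Pik3ip1 (-1.06), Rgs1 (0.88), Scml4 (-1.50), Stmn1 (1.29), Tyms (2.60) and Wls (2.39). Without WT library 2 they were Ezh2 (0.62), Fam78a (-1.33), Hmgb2 (0.40), Itgae (1.75), Nfkbia (0.62) and Tyms (1.84). Without PD-L1 KO library 1 they were Ezh2 (0.97), Foxp1 (-0.59), Hmgb2 (0.67), Ltb (0.37) and Nfkbia (0.41). Without PD-L1 KO library 2 they were Itgae (2.05) and Ltb (0.37). Tnfrsf4, Tnfrsf18, Il1rl1, Maf, Dapl1, Lef1 and Bcl2 kept their call in each of the 4 refits, and Klrg1 in the 3 in which it had enough counts.

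**Figure D2:**
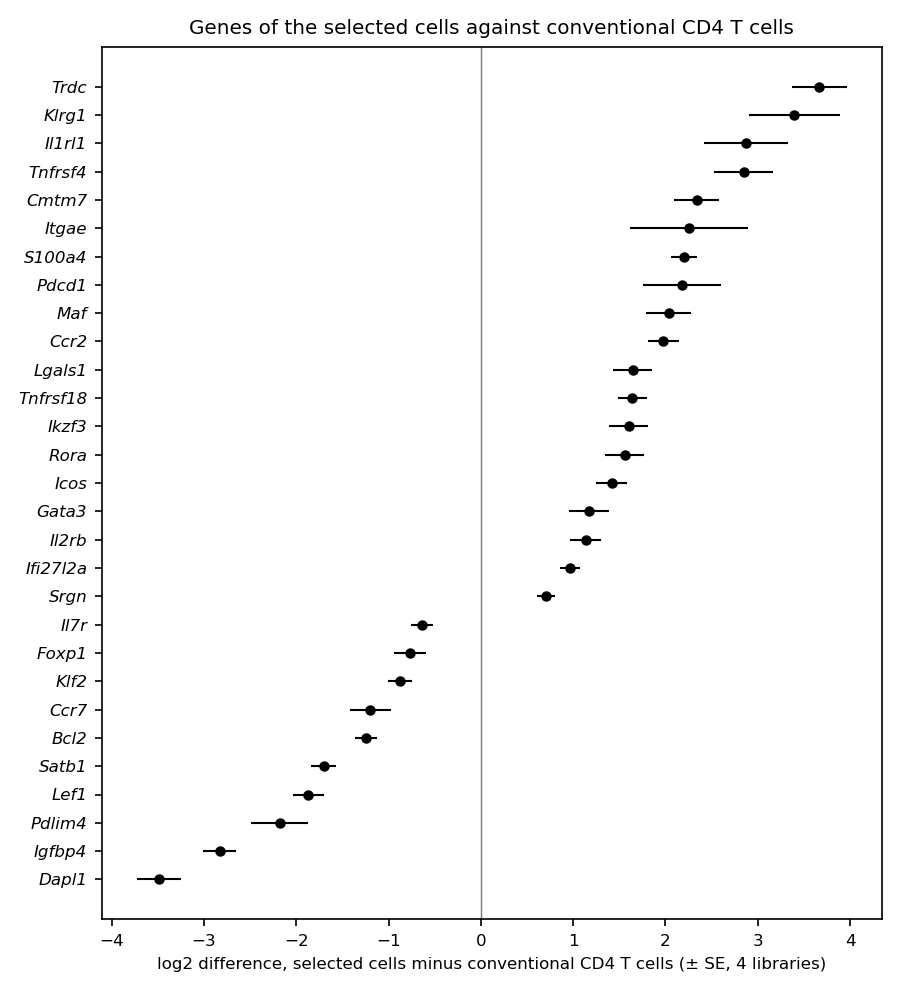
Log2 difference (points) with its SE (bars) between Treg-gated cells and conventional CD4 T cells for 29 named genes, each past the edgeR threshold, from 4 libraries. Trdc, Klrg1 and Tnfrsf4 stand at 3.67, 3.40 and 2.85 on the higher side, and Dapl1 and Lef1 at -3.48 and -1.87 on the lower side. Only the conventional cells had to hold Cd4.

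The shares of Treg-gated cells overlapped between lungs with PD-L1 KO tumour cells and lungs with WT tumour cells. They made up 2.38% (95% exact interval 1.79 to 3.09) and 2.09% (1.51 to 2.80) of kept cells in the PD-L1 KO libraries, against 2.19% (1.66 to 2.84) and 1.95% (1.43 to 2.58) in the WT libraries. The groups overlapped, with means of 2.23 ± 0.21% in PD-L1 KO and 2.07 ± 0.17% in WT (SD, n = 2 each), a difference of 0.16 percentage points (two-sided exact permutation p = 0.667, where the smallest possible is 0.3333). Of T cells they were 54 of 394 (13.7%) and 43 of 262 (16.4%) in PD-L1 KO, against 55 of 392 (14.03%) and 47 of 427 (11.0%) in WT. That difference was 2.54 percentage points (two-sided exact permutation p = 0.667). Foxp3-detected cells alone made up 5.58% and 8.78% of T cells in PD-L1 KO and 6.63% and 4.92% in WT, which overlapped too. The groups did not overlap in the share of T cells under 4 other settings, each at an exact permutation p of 0.3333, the smallest possible. With Cd4 required, the cells were 4.82% and 10.3% of T cells in PD-L1 KO and 4.08% and 4.45% in WT. With stricter cell filters they were 15.2% and 19.4% in PD-L1 KO and 14.2% and 10.9% in WT. With every cell thinned to 2000 UMIs the means were 10.5% in PD-L1 KO and 8.44% in WT, and with mixed-lineage cells left out they were 13.3% in PD-L1 KO and 11.03% in WT. Positive selection with CD45 beads and the number of cells loaded can set such shares.

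**Figure D3:**
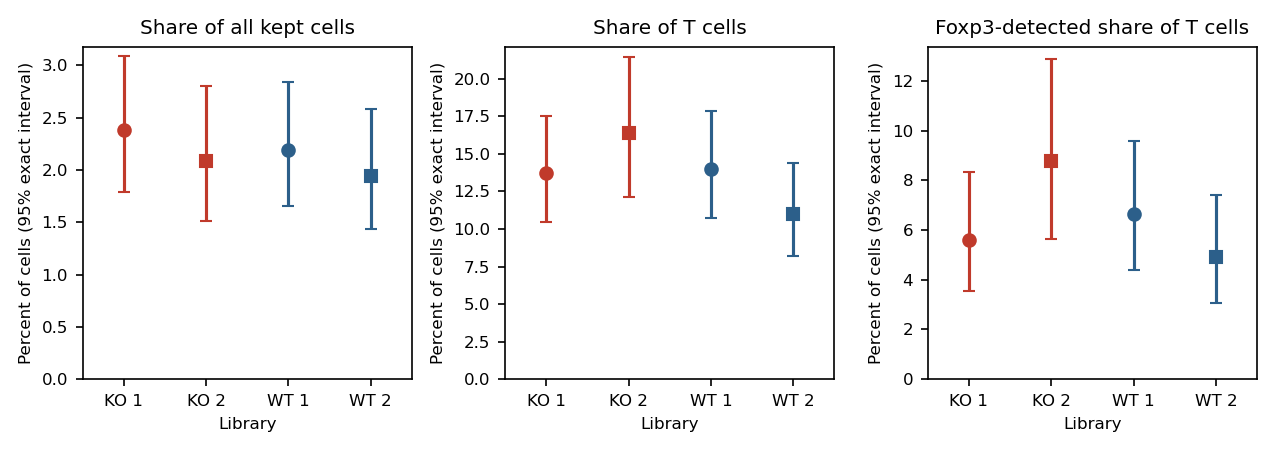
Percent of all kept cells (left) and of T cells (middle) that were Treg-gated, and percent of T cells that were Foxp3-detected Treg-gated cells (right), in each library with 95% exact binomial intervals, red for PD-L1 KO and blue for WT. In each panel the PD-L1 KO and WT values overlap, as with 13.7% and 16.4% against 14.03% and 11.0% of T cells.

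Within the Treg-gated cells, few genes differed between the groups past the threshold. Of 4100 genes tested across the 4 libraries by edgeR's quasi-likelihood test, 2 (0.0488%) were higher and 2 (0.0488%) lower in PD-L1 KO at an adjusted p under 0.05, and 256 had an unadjusted p under 0.05. With DESeq2, 4 were higher and 2 lower. The 2 higher genes were Cd74 and Cst3, and the 2 lower genes were Klf2 and S100a8. For Cd74, Cst3 and S100a8, single cells held a large part of the UMIs in the higher group.

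Klf2 is a transcription factor that keeps T cells quiescent and drives the receptor S1pr1, through which T cells leave tissues and lymph nodes. It stood at 677 and 702 CPM in the PD-L1 KO libraries and at 1490 and 1528 CPM in the WT libraries. Both PD-L1 KO values were below both WT values. It was detected in 33 of 54 and 26 of 43 PD-L1 KO cells and in 41 of 55 and 43 of 47 WT cells, and no single cell held more than 17.9% of a library's Klf2 UMIs. The log2 difference was -1.13 (SE 0.15, edgeR adjusted p = 0.0265). Over 15 alternatives it ranged from -1.43 to -1.02 and passed in 9. The edgeR adjusted p was 0.244 with Cd4 required and 0.161 with stricter cells. It was 0.0612 with Foxp3-detected cells alone, 0.0732 without the mixed-lineage cells and 0.05 without likely doublets. Without WT library 2 the log2 difference of -1.08 missed the threshold too. S1pr1, named after its values were seen, stood at 121 and 105 CPM in PD-L1 KO and 191 and 355 CPM in WT, a log2 difference of -1.25 that did not pass (SE 0.33, edgeR adjusted p = 0.541). Klf2 was also lower in the PD-L1 KO libraries in conventional CD4 T cells, by a log2 difference of -0.69 (edgeR adjusted p = 0.697), and in CD8 T cells, by -0.66 (edgeR adjusted p = 0.769), neither past the threshold.

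Cd74, the invariant chain of MHC class II, had 202 and 159 UMIs in PD-L1 KO and 11 and 21 in WT Treg-gated cells (log2 difference 3.36, edgeR adjusted p = 0.00447). A single cell held 183 of the 202 and another 154 of the 159. Cst3 (cystatin C), abundant in antigen-presenting cells, had 437 and 242 UMIs in PD-L1 KO and 87 and 96 in WT (log2 difference 1.74, edgeR adjusted p = 0.0265), of which single cells held 372 and 182 in PD-L1 KO. It was detected in 28 and 28 PD-L1 KO cells and 42 and 31 WT cells. With Foxp3-detected cells alone its difference was -0.90, and with the mixed-lineage cells left out -0.65. S100a8, a neutrophil calprotectin chain, had 363 and 206 UMIs in PD-L1 KO and 613 and 632 in WT (log2 difference -1.28, edgeR adjusted p = 0.0441), in 5 and 11 PD-L1 KO cells and 13 and 4 WT cells, and missed the threshold without WT library 2 (edgeR adjusted p = 0.201). The largest cell held 59.2% and 78.6% of them in PD-L1 KO and 46.2% and 47.3% in WT. H2-Eb1, an MHC class II chain, was next to these with 36 and 47 UMIs in PD-L1 KO and 3 and 7 in WT, of which the largest cell held 63.9% and 87.2% in PD-L1 KO (edgeR adjusted p = 0.111).

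**Figure D4:**
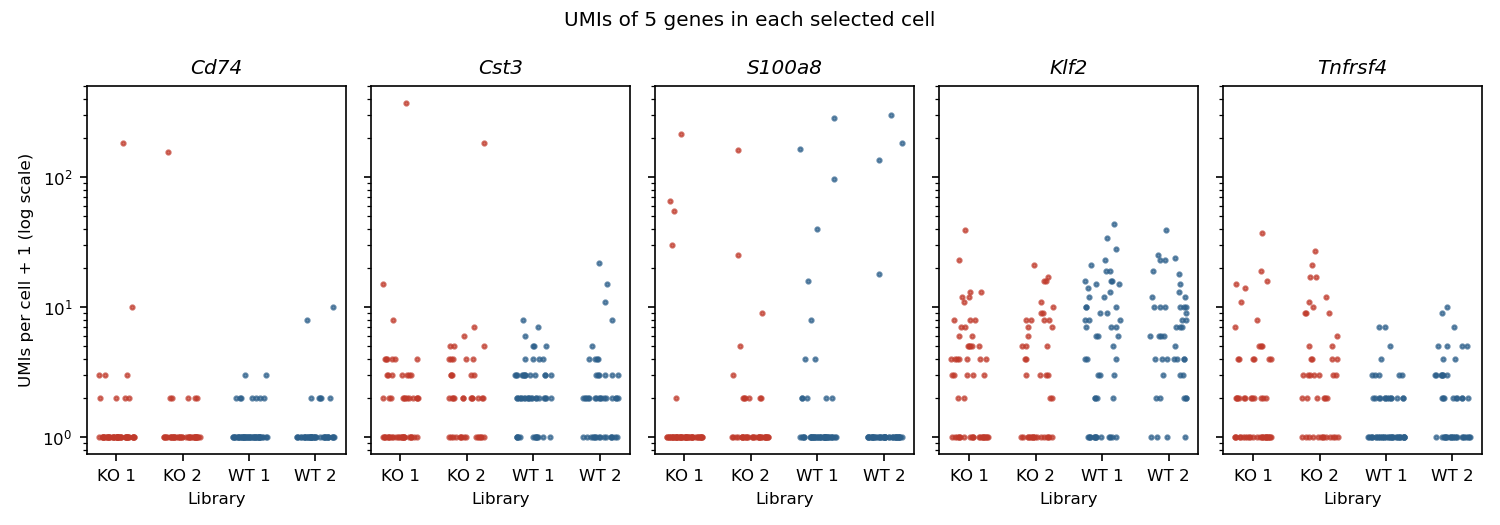
UMIs per cell plus 1, on a log axis, of Cd74, Cst3, S100a8, Klf2 and Tnfrsf4 in each of the 199 Treg-gated cells, by library, red for PD-L1 KO and blue for WT. Cd74 and Cst3 each have 1 cell far above the rest in either PD-L1 KO library, as with 183 and 154 UMIs of Cd74, while Klf2 and Tnfrsf4 are spread over many cells.

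Of the TNF receptor family, Tnfrsf4, Tnfrsf9 and Tnfrsf18 were higher in both PD-L1 KO libraries than in either WT library, none past the threshold. Tnfrsf4, with the values given above, had a log2 difference of 1.51 (SE 0.31, edgeR adjusted p = 0.21), and DESeq2 gave an adjusted p of 0.0333. It was detected in 29 and 30 PD-L1 KO cells and 22 and 25 WT cells. Tnfrsf9 (4-1BB), induced on activated T cells, stood at 166 and 169 CPM in PD-L1 KO and 10.6 and 50.6 CPM in WT, in 16 and 13 PD-L1 KO cells and 2 and 6 WT cells (log2 difference 2.50, SE 0.48, edgeR adjusted p = 0.171). Tnfrsf18 stood at 412 and 710 CPM in PD-L1 KO and 312 and 325 CPM in WT (log2 difference 0.81, edgeR adjusted p = 0.62). Of the 11 tested receptors of that list 8 had a difference above 0 (median 0.53, against -0.01 over all genes), and 6 were higher and 2 lower without overlap, where 16.8% of all genes were higher and 18.2% lower without overlap. Icos, at a log2 difference of 0.21, was -0.092 without WT library 1, and Cd2 was at 0.53. Pdcd1 stood at 86.3 and 101 CPM in PD-L1 KO and 42.5 and 50.6 CPM in WT (log2 difference 1.00, edgeR adjusted p = 0.653). Vsir, an inhibitory receptor, stood at 89.5 and 64.5 CPM in PD-L1 KO and 127 and 143 CPM in WT.

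Among the 12 genes of smallest p, several others did not overlap between the groups. A choice by smallest p favours such genes, so the lack of overlap adds nothing to the p-values. Over all 4100 genes, 16.8% were higher and 18.2% lower in PD-L1 KO without overlap. Pmepa1, a feedback inhibitor of TGF-beta signalling, stood at 230 and 242 CPM in PD-L1 KO and 95.6 and 67.5 CPM in WT (SE of the log2 difference 0.27, edgeR adjusted p = 0.154). AW112010, a transcript induced in stimulated mouse immune cells, stood at 1572 and 2682 CPM in PD-L1 KO and 913 and 549 CPM in WT (log2 difference 1.54, edgeR adjusted p = 0.154). With Foxp3-detected cells alone its difference was 1.80 and it was the single gene past the threshold (edgeR adjusted p = 0.00996). Bcl2a1d, a survival factor of the Bcl2 family, stood at 115 and 96.8 CPM in PD-L1 KO and 28.3 and 25.3 CPM in WT (edgeR adjusted p = 0.171). Ly6a (Sca-1) stood at 243 and 823 CPM in PD-L1 KO and 42.5 and 88.6 CPM in WT, and 1 cell held 70 of the 204 UMIs of PD-L1 KO library 2. Ube2l6, the conjugating enzyme for the ubiquitin-like protein ISG15, had 14 and 13 UMIs in PD-L1 KO and 0 and 1 in WT. In the other direction, Ccr10, a receptor for mucosal and skin chemokines, had 0 and 0 UMIs in PD-L1 KO and 18 and 11 in WT, and was at least 10.4-fold lower in PD-L1 KO with the floor at 3 UMIs over the group.

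**Figure D5:**
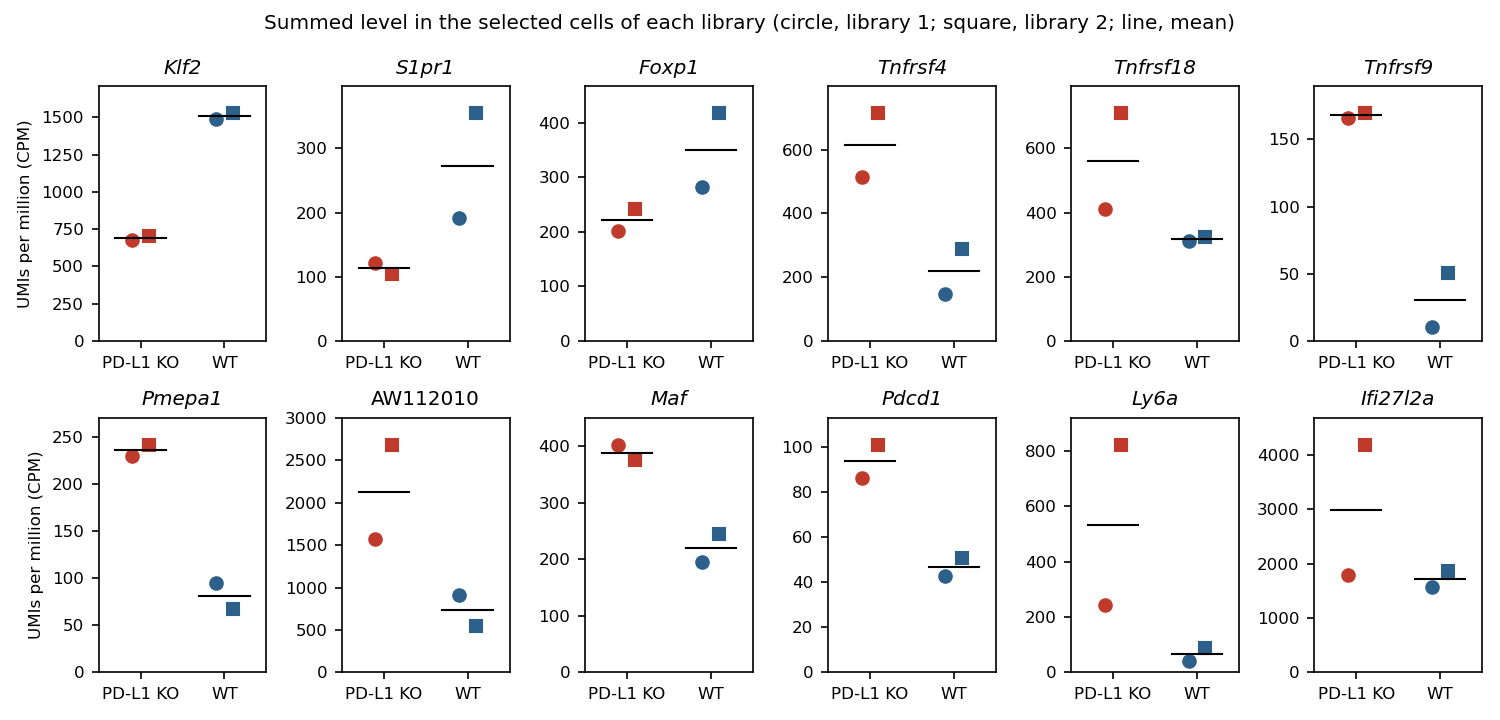
Level of 12 genes in the summed Treg-gated cells of each library, in CPM, red for PD-L1 KO (left) and blue for WT (right), circles for library 1, squares for library 2 and lines for the group mean. Klf2 stands at 677 and 702 in PD-L1 KO and 1490 and 1528 in WT and is the single gene of the 12 past the edgeR threshold.

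Of the resting and homing genes, Klf2 included, 9 of 11 tested had a negative log2 difference (median -0.37), and 6 were lower in both PD-L1 KO libraries than in either WT library, as were 18.2% of all genes. Klf2 was the one that passed. Foxp1, a factor of quiescent T cells, stood at 201 and 242 CPM in PD-L1 KO and 283 and 418 CPM in WT (log2 difference -0.66), and Il7r differed by -0.37. The same list had a median of -0.69 in conventional CD4 T cells and of -0.66 in CD8 T cells. Effector and tissue genes had 9 of 12 differences above 0 (median 0.33). Maf, a factor that drives interleukin-10 in T cells, stood at 403 and 375 CPM in PD-L1 KO and 195 and 245 CPM in WT (log2 difference 0.83, edgeR adjusted p = 0.541). Il1rl1 ran the other way, at 76.7 and 92.8 CPM in PD-L1 KO and 152 and 144 CPM in WT, while Rora differed by -0.52, Gata3 by -0.27 and Srgn by 0.46. None of these passed.

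Of the suppressive genes, 7 were tested, none passed and the median was -0.11. Il10, named after its values were seen, had 4 and 19 UMIs in PD-L1 KO, in 4 and 5 cells, and 0 and 0 UMIs in WT, at least 7.10-fold higher in PD-L1 KO with the floor at 3 UMIs over the WT cells. A single cell held 13 of the 19. Areg had 75 and 7 UMIs in PD-L1 KO and 27 and 35 in WT, so the groups overlapped.

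Interferon response genes leaned upward in PD-L1 KO without any single gene past the threshold. Of 43 tested, 40 had a log2 difference above 0 (median 0.73), 14 had an unadjusted p under 0.05, and 19 were higher in both PD-L1 KO libraries than in either WT library. Over all 4100 genes, 256 had an unadjusted edgeR p under 0.05, 135 of them higher in PD-L1 KO, and 16.8% were higher without overlap. Isg15, the ubiquitin-like protein that Ube2l6 conjugates, stood at 198 and 411 CPM in PD-L1 KO and 110 and 88.6 CPM in WT. Ifi27l2a stood at 1786 and 4186 CPM in PD-L1 KO and 1579 and 1865 CPM in WT, where PD-L1 KO library 1 was within the WT range. PD-L1 KO library 2 had the highest value of both. The median of the list was 0.61 over 39 genes in conventional CD4 T cells and 0.45 over 43 in CD8 T cells. Isg15 is named after its values were seen.

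MHC class I presentation genes all had a log2 difference above 0: 20 of 20, with a median of 0.58. Of these, 11 were higher at an unadjusted edgeR p under 0.05, as were 135 of all 4100 genes tested. Both PD-L1 KO libraries were above either WT library for 15 of them, as for 16.8% of all genes. H2-D1, a class I heavy chain, stood at 3905 and 4311 CPM in PD-L1 KO and 3324 and 3085 CPM in WT (log2 difference 0.36, edgeR adjusted p = 0.565). B2m, the light chain, stood at 1767 and 2036 CPM in PD-L1 KO and 1519 and 1519 CPM in WT (log2 difference 0.33). H2-K1 differed by 0.40 and the immunoproteasome subunit Psmb8 by 0.28. The medians of this list in conventional CD4 T cells and CD8 T cells were 0.19 and 0.22, and whether the lists differ between the cell sets was not tested.

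Cell cycle genes had a median log2 difference of -0.10 with 7 of 17 above 0, and heat shock and dissociation genes -0.38 with 3 of 14 above 0. T cell receptor signalling genes had 8 of 12 above 0 (median 0.27) and T cell receptor response genes 8 of 11 (median 0.23). Chemokine receptors and integrins had a median of 0.05 over 11 genes, with Ccr2 at 0.51, and glycolysis genes 0.14 over 12. Il2rb differed by 0.34 and Ltb by 0.36. The neutrophil genes lay below 0 in 4 of 4 cases (median -0.92), with S100a8 as the member past the threshold, and Trdc differed by 0.76. No other gene of the lists in this paragraph passed.

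The last comparison asked whether the PD-L1 KO minus WT difference was another in Treg-gated cells than in conventional CD4 T cells. Of 4951 genes tested by edgeR for this interaction, 0 (0%) were higher and 1 (0.0202%) lower, and 252 had an unadjusted p under 0.05. DESeq2 called 0, with 21 at an unadjusted p under 0.05. The gene was Ifitm1, an interferon-induced membrane protein, at 28.8 and 96.8 CPM in PD-L1 KO and 110 and 110 CPM in WT Treg-gated cells, and at 291 and 589 CPM in PD-L1 KO and 64.1 and 96.2 CPM in WT conventional cells. Conventional cells were higher in PD-L1 KO and Treg-gated cells were not (interaction log2 difference -3.23, edgeR adjusted p = 0.00551). It was found in 2 and 3 PD-L1 KO and 6 and 6 WT Treg-gated cells. Over 14 alternatives the difference ranged from -3.73 to -1.85 and passed in 7. It was -2.91 without PD-L1 KO library 1, -3.73 without PD-L1 KO library 2 and -2.93 without WT library 1, with edgeR adjusted p of 0.0732, 0.0872 and 0.221. The next genes, Hist1h2ap, Cxcr3, H2-Ab1 and Pclaf, had differences of -3.71, -2.66, -3.02 and -5.22 and an edgeR adjusted p of 0.228 each. For Cxcr3, the receptor for interferon-induced chemokines, Treg-gated cells stood at 160 and 210 CPM in PD-L1 KO and 99.1 and 92.8 CPM in WT, and conventional cells at 91.6 and 155 CPM in PD-L1 KO and 12.8 and 5.50 CPM in WT. Both sets were higher in PD-L1 KO, and the conventional cells had the larger ratio. Klf2, Tnfrsf4 and the other genes named above did not pass this test, so a difference between the cell sets was not shown for them.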

How the data were processed

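Processed 10x Chromium 3' v3 libraries of 4 samples were analysed. Per the labels, reads were mapped to mm10 with STAR in Cell Ranger 3.1.0 by the authors. The deposited values were UMI counts per gene and barcode, with no normalization. Library totals were 17618220 to 19635983 UMIs, and 9256 of 10382 barcodes passed the cell filter.

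UMIs were summed per library over the chosen cells and tested with edgeR 4.0.16 (filterByExpr, TMM, quasi-likelihood test, Benjamini-Hochberg adjustment) in R 4.3.3, after a check on simulated data. DESeq2 1.42.0 was an alternative. Scrublet in scanpy 1.11.5 (Python 3.11.15) marked doublets at 0.8% per 1000 barcodes, and marked cells were left out only in an alternative. Shares were compared by exact permutation tests (scipy 1.17.1). With 43 to 55 cells a library, low genes rest on few UMIs, and intervals cover counting error only. Mixed-lineage cells held 20 or more UMIs of Cd74, H2-Aa, H2-Ab1 and H2-Eb1 together, or of S100a8 and S100a9 together.

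The members, and 27 lists of 337 genes (334 found), were chosen with earlier results of these data known. Named genes were the 12 of smallest p in PD-L1 KO against WT, the 12 of largest difference in each direction against conventional CD4 T cells, the 5 of smallest p in the interaction, list members that passed, and the 4 most abundant members of each list, of which a part is printed. Other alternatives were another scaling, no filter, single libraries left out, stricter cells, thinning to 2000 UMIs, and other gates. The labels do not state that replicate numbers pair the libraries, so the main PD-L1 KO against WT test used no replicate block. The correlation in the closing section cannot settle this with 2 libraries a group. Some listed genes are not reported here.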

Additional observations from a re-analysis of the deposited data

Results flagged for a closer look

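Ifitm1 stood out because the PD-L1 KO minus WT difference in Treg-gated cells differed from that in conventional CD4 T cells of the same libraries, by -3.23 on the log2 scale (edgeR interaction term, adjusted p = 0.00551). Treg-gated cells had 28.8 and 96.8 CPM in PD-L1 KO and 110 and 110 CPM in WT, and conventional cells 291 and 589 CPM in PD-L1 KO and 64.1 and 96.2 CPM in WT. The Treg-gated values came from 2 and 3 PD-L1 KO cells and 6 and 6 WT cells. The difference passed in 7 of 14 alternatives.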

How the results depend on the processing

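Values are genes higher / lower. Between PD-L1 KO and WT, the main 2 / 2 became 4 / 2 with DESeq2, 40 / 12 with no filter, 1 / 0 with Foxp3-detected cells alone, 0 / 0 with Cd4 required, 0 / 0 with stricter cells, 2 / 0 without likely doublets and 4 / 3 with thinning. Chosen after seeing the data, leaving out mixed-lineage cells gave 1 / 0, and leaving out cells with gamma-delta or ILC2 UMIs gave 0 / 1. Leaving out 1 library gave 3 to 87 higher and 0 to 27 lower: 25 / 10 without WT library 1, 3 / 0 without WT library 2, 87 / 27 without PD-L1 KO library 1 and 36 / 26 without PD-L1 KO library 2, where the lone library is assumed to vary like the other group. A replicate block gave 23 / 8, but deviations of same-numbered libraries did not go together (correlation -0.009 over 4100 genes).

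Against conventional cells, the main 175 / 206 became 76 / 109 with DESeq2, 319 / 148 without TMM, 299 / 334 with no filter, 101 / 126 with Cd4 required, 78 / 137 with stricter cells, 112 / 136 with thinning and 308 / 466 when conventional cells needed no Cd4. Leaving out 1 library gave 98 to 209 higher and 114 to 246 lower: 98 / 114 without WT library 1, 106 / 128 without WT library 2 and 111 / 122 without PD-L1 KO library 1. Without the library block the counts were 132 / 167. When conventional cells needed no Cd4, 227 of the 774 genes called were among the 381 of the main fit. Over the alternatives Dst ran from 0.63 to 2.49 on the log2 scale and passed in 9 of 10. Srgn ran from 0.11 to 1.16 and passed in 15 of 16.

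For the interaction, the main 0 / 1 became 0 / 0 with DESeq2, with thinning, with mixed-lineage cells left out and when conventional cells needed no Cd4, 7 / 15 with no filter, 0 / 3 with Foxp3-detected cells alone, 1 / 0 with Cd4 required, 0 / 5 with stricter cells, 0 / 4 without likely doublets and 0 / 4 without gamma-delta or ILC2 UMIs. Leaving out 1 library gave 0 to 11 higher and 0 to 10 lower.

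The share of kept cells turned to -0.0369 percentage points without gamma-delta or ILC2 UMIs, with an exact permutation p of 1.0. It was 0.361 with Cd4 required and 0.482 with stricter cells, against 0.163 as reported, with the groups apart (exact permutation p = 0.3333 each). Leaving out 1 library moved it between 0.0162 and 0.310, and the share of T cells between 1.03 and 4.05. Cst3 turned to -0.90 with Foxp3-detected cells and -0.65 without mixed-lineage cells, and Icos ran from -0.092 to 0.58 with 1 library left out, below 0 without WT library 1. The cause of these changes was not tested. With 43 to 55 cells a library, genes with few UMIs had little precision.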
